A study of Mus musculus with 16 samples.

Results

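Interleukins are secreted proteins through which immune and tissue cells signal to each other, and each acts on cells that carry its receptor chains. The gene set described here held the protein-coding mouse genes whose GENCODE M21 symbol starts with Il and a digit, which covers ligands, receptor chains and secreted inhibitors. It came to 84 gene identifiers with 82 symbols, because the alpha receptor gene Il11ra2 had further copies on unplaced scaffolds, out of 54532 identifiers counted. The rule used symbols only and no measured value. By role, 37 identifiers were ligands, 42 receptor chains, 4 inhibitors and 1 an enzyme induced by IL-4 (Il4i1).

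RNA was sequenced from 16 libraries of bone marrow-derived macrophages, grown from mouse marrow in 20 ng/mL of M-CSF over 7 days and then cultured for 24 h. Cells of the WT naive group (n = 3) received no tumor cell-conditioned medium (TCM), and the other groups received 70% TCM from YUMM1.7, a mouse melanoma line. These were WT TCM (n = 3), TRAP1 KO TCM (n = 4), JMJD3 WT TCM (n = 3) and JMJD3 cKO TCM (n = 3), where cKO is a conditional knockout. TRAP1 is a mitochondrial chaperone, and JMJD3, encoded by Kdm6b, is a histone H3 lysine 27 demethylase. The design text names the wild type of the TRAP1 line as the source of the first wild-type groups. The sources used here do not give the Cre driver of the JMJD3 cKO, the deleted exons, the age of the mice or whether replicates were separate animals or cultures. The p-values therefore rest on the spread among libraries, part or all of which may be technical.

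Macrophages are both a source and a target of interleukins. IL-1 beta is made as an inactive precursor that the inflammasome cleaves, and the IL-1 receptor antagonist, encoded by Il1rn, occupies the same receptor without signalling. IL-18 is held in check by a secreted binding protein, encoded by Il18bp. IL-4 and IL-13 act on macrophages through the alpha chain Il4ra, paired with the common gamma chain Il2rg or with Il13ra1, and IL-10 restrains macrophage cytokine output through Il10ra and Il10rb.

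The upstream sequences of Il1b, Il1rn and Il18 are shown because this ligand, its antagonist and the related ligand carried distinct changes between the groups. They are RefSeq windows of GRCm38.p6 that end just before an annotated start, trimmed of any annotated exon and written 5′ to 3′ on the gene's strand. Capitals mark matches, on either strand, to TATAAA (the TATA box), TGANTCA (the AP-1 site) and TTCNNNNGAA (a STAT site with a spacing of 4). Il1b (ENSMUSG00000027398) lies on the minus strand, and its window is chr2:129371140-129371389. Il1rn (ENSMUSG00000026981) lies on the plus strand, with a distal window at chr2:24336610-24336852 and a proximal one at chr2:24345041-24345287. The window of Il18 (ENSMUSG00000039217), on the plus strand, is chr9:50554450-50554699.
Il1b: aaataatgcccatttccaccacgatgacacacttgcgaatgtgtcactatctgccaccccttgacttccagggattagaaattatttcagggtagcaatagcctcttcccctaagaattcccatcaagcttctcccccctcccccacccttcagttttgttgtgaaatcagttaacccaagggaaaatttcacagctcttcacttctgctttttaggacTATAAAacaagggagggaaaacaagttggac
Il1rn distal: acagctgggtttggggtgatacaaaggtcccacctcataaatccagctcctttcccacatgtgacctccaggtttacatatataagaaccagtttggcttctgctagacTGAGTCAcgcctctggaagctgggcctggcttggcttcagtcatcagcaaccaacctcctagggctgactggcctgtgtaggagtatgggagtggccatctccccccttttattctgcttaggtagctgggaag
Il1rn proximal: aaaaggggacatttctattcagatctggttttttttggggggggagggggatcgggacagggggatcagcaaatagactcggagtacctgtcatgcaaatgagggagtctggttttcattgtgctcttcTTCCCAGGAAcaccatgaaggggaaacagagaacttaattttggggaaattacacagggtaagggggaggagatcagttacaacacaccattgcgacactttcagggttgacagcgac
Il18: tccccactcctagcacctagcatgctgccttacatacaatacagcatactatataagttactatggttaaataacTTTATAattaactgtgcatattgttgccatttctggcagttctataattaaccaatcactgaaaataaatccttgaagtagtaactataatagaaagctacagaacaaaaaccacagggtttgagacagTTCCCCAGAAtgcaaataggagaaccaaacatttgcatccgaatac
The Il1b window held a TATA box starting 31 bases before the start and neither of the other motifs marked. The distal Il1rn window held an AP-1 match and no TATA box, while the proximal one held a STAT match, as did that of Il18. RefSeq windows were matched for 65 of the members (80 windows of 250 bases). TTCNNNNGAA was in 17.5% of these windows and in 5.85% of all 32841 windows. TGANTCA was in 17.5% against 6.75%, TTGCNNAA (the C/EBP site) in 17.5% against 9.57%, TATAAA in 16.25% against 12.4%, and GAGGAA (the PU.1 site) in 28.7% against 23.3%. TTCNNNGAA (a STAT site with a spacing of 3) was in 10% against 7.02%, and the NF-kappaB site in 6.25% against 3.90%. Among the 27 members tested for expression with a matched window, 4 had a TTCNNNNGAA match. These are matches of letters on both strands, different motifs may overlap, and windows of one gene can share bases.

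Most interleukin ligands were silent or nearly so in these macrophages, whereas most receptor chains had counts enough to test. No library held a count of 18 identifiers, among them the T cell cytokines Il17a, Il21, Il22, Il3, Il5 and Il9 and the IL-12 subunit gene Il12a. With 3 counts over all libraries as the limit, a count of 0 allows up to 0.00987 CPM (read counts relative to the scaled total of the library), for counting error only. A further 29 identifiers were counted but too low to test, and 37 were tested in at least 1 comparison, namely 10 of 37 ligands, 25 of 42 receptor chains and 2 of 4 inhibitors. A mean of at least 10 CPM in some group was reached by 23 members, of which 15 were receptor chains, 6 ligands and 2 inhibitors. Of the 37 tested, 7 (Il17rb, Il1r1, Il1rl2, Il27ra, Il2ra, Il2rb and Il7) had a mean count under 10 in at least 1 group. They were tested only through the groups where they were higher, so their calls are given as values only. The counts of called members below still include those called, which lend no weight to these counts. They are Il1r1 and Il7 (lower with TCM), Il27ra (lower without TRAP1), and Il27ra and Il2rb (higher in JMJD3 cKO TCM). Between the wild types they are Il1r1, Il2ra and Il7 (higher) and Il27ra (lower). In the difference and the shared patterns of the genotype effects it is Il27ra.

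**Figure D1:**
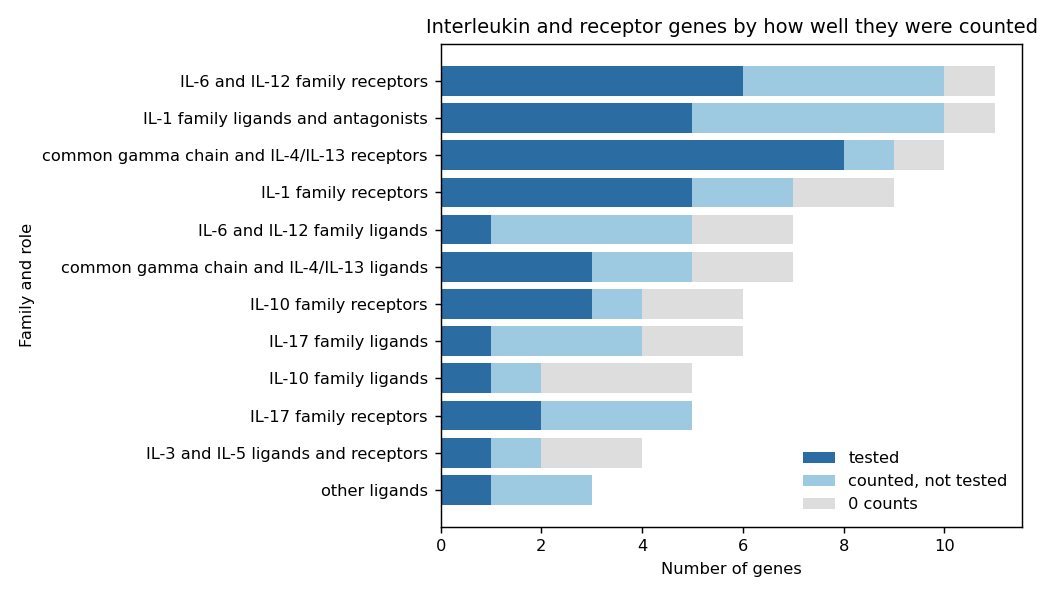
Number of gene identifiers (x axis) in each family and role (y axis), split into those with 0 counts in all 16 libraries, those counted but not tested and those tested. The ligand bars are mostly untested, and the receptors of the common gamma chain and IL-4/IL-13 group have 8 of 10 tested.

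Several ligand and receptor genes were at the edge of detection. Il6, the acute-phase cytokine, had 1, 1, 0, 12 and 5 counts summed over WT naive, WT TCM, TRAP1 KO TCM, JMJD3 WT TCM and JMJD3 cKO TCM. Il12b, the shared subunit of IL-12 and IL-23, had 7, 5, 10, 8 and 12 counts in the same order, and Il1r2, the decoy receptor of IL-1, had 9, 3, 19, 6 and 14. Il34, an alternative ligand of the M-CSF receptor, had 5, 1 and 7 counts in the first groups and 0 in both groups of the JMJD3 line. These genes were too low to test. With no filter on low counts, Il6 was called higher in JMJD3 WT TCM than in WT TCM (log2 fold change 3.40, adjusted p = 0.045), on 12 against 1 counts. None of the other comparisons of these genes was called in that fit. Il11ra2 had 27 counts in all, and its near-identical copy Il11ra1 can take or lose reads by the counting, so the values of both are uncertain.

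Levels between genes were compared in CPM per kb of annotated exon. In WT naive cells Il10rb stood first, at 52.7 ± 1.56 CPM per kb (mean ± SD, as in all values below, n = 3), followed by Il2rg at 48.0 ± 2.14 and Il10ra at 41.3 ± 0.181. In WT TCM Il4ra stood first at 79.1 ± 1.03 CPM per kb and Il2rg followed at 64.2 ± 1.06. Il4ra also led in TRAP1 KO TCM, at 129 ± 1.77 CPM per kb (n = 4), while Il21r (60.7 ± 1.24), Il10ra (59.8 ± 0.943) and Il2rg (59.3 ± 2.11) lay within each other's spread. Inhibitors led in the JMJD3 line. Il1rn was first in JMJD3 WT TCM at 170 ± 8.53 CPM per kb, and Il18bp was first in JMJD3 cKO TCM at 93.2 ± 3.06, within the spread of Il4ra at 90.2 ± 1.41.

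All members together took 0.169% ± 0.00254 of the counts of WT naive libraries. WT TCM stood at 0.190% ± 0.00106 and TRAP1 KO TCM at 0.233% ± 0.00134, while the JMJD3 line stood at 0.372% ± 0.00412 (JMJD3 WT TCM) and 0.285% ± 0.00274 (JMJD3 cKO TCM). Library totals ran from 15361604 to 22426820 counts. Trap1 fell to 0.0377 ± 0.0252 CPM in TRAP1 KO TCM from 67.7 ± 5.51 in WT TCM. Kdm6b was not lower in JMJD3 cKO TCM (25.6 ± 1.02 CPM) than in JMJD3 WT TCM (25.1 ± 1.69), and a total over all exons says nothing on a partial deletion, so this group is cKO by its label only. Macrophage markers summed to 12421 to 25978 CPM per library, with none at 0 in any group. Xist was at 844 and 918 CPM in the groups of the JMJD3 line and Ddx3y, on the Y chromosome, was at 85.1 to 87.1 CPM in the others and at 0 counts in that line, so line, sex and set cannot be told apart.

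**Figure D2:**
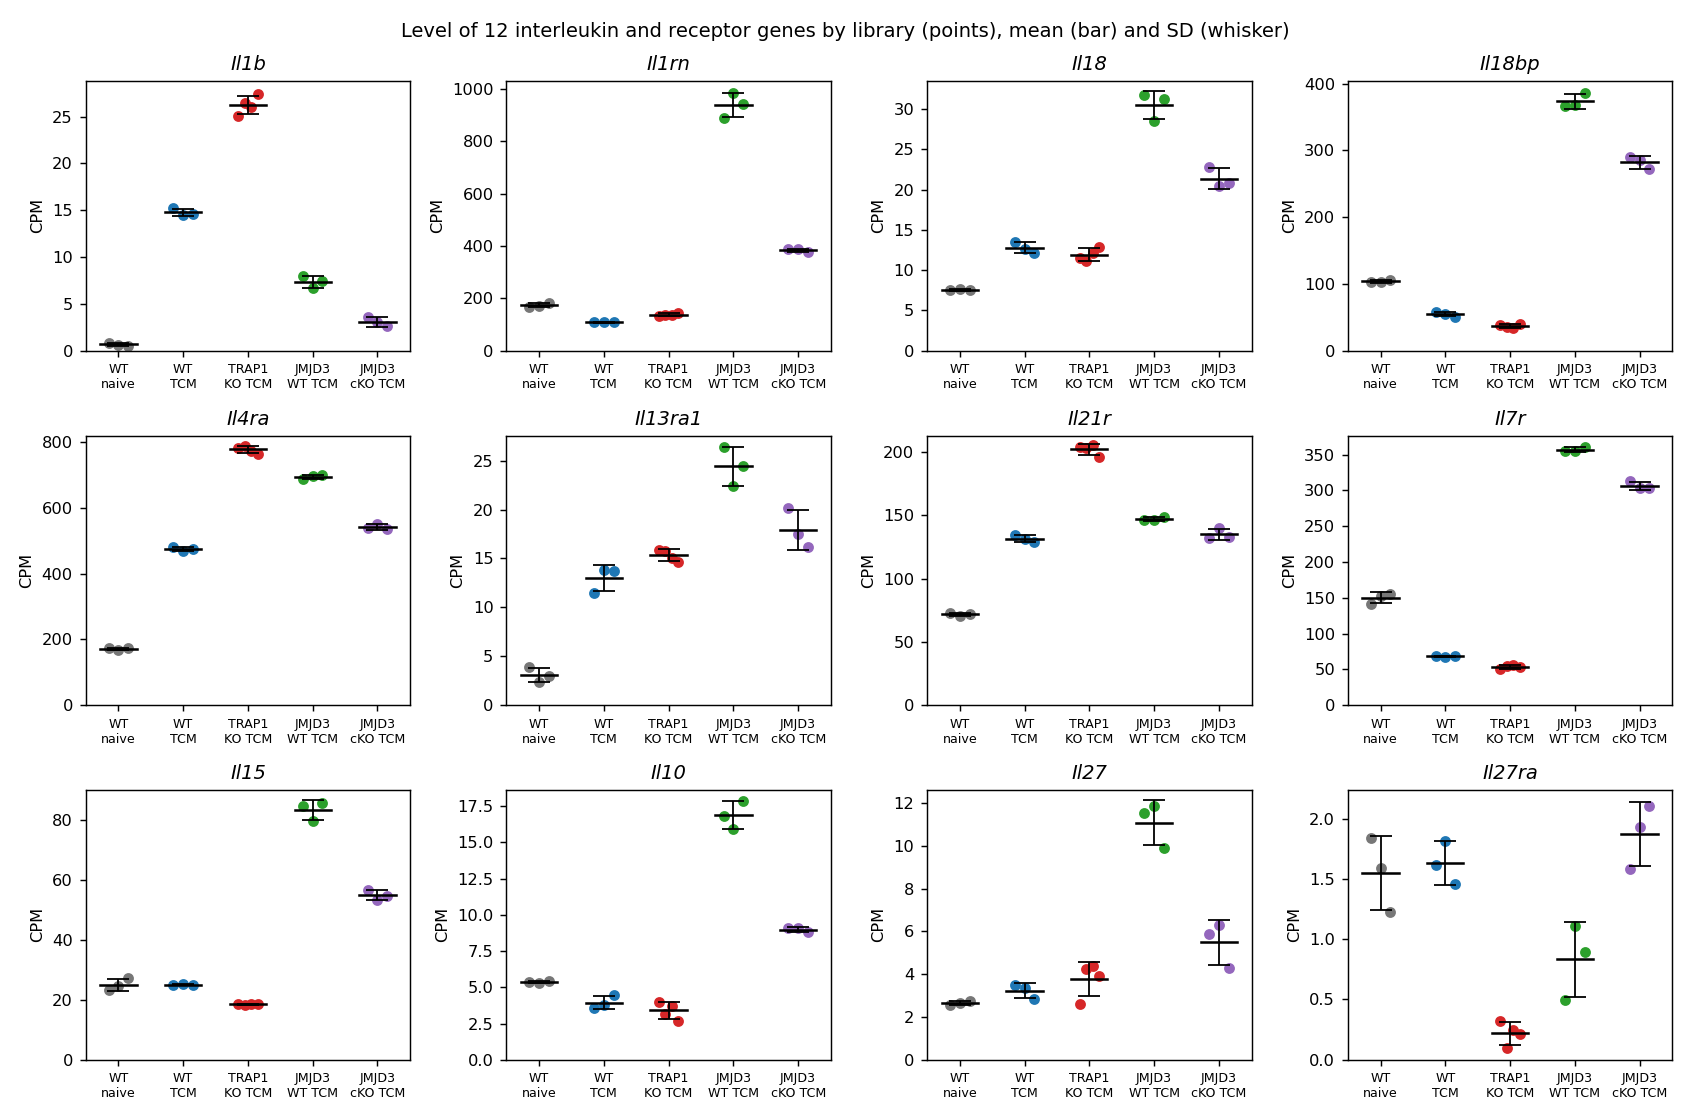
CPM of 12 interleukin and receptor genes (y axes, linear from 0, each with its own range) in each library of the 5 groups (x axis), 1 point per library, with a bar at the group mean and whiskers of 1 SD. Il1b lies under 1 CPM in WT naive and over 14 CPM in WT TCM, and Il1rn is highest in JMJD3 WT TCM.

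The response of macrophages to medium from melanoma cells was read from WT TCM against WT naive. The transcripts of IL-1 beta and of the receptor chains for IL-4, IL-13 and IL-21 rose, while both secreted inhibitors and the IL-7 receptor fell. Among 35 members tested, 11 rose and 10 fell (adjusted p under 0.05, edgeR quasi-likelihood test with Benjamini-Hochberg adjustment over all genes, used throughout). Of all 14078 genes tested, 21.6% rose and 20.6% fell, 42.2% in all. The libraries of the groups did not overlap in any of the 21 members called, as for 94.7% of all genes called. The median log2 fold change was 0.07 over the members and -0.01 over all genes. In bulk RNA a change in the share of a cell type and a change in RNA per cell cannot be told apart.

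Among IL-1 family ligands and inhibitors, 2 of 5 tested rose and 2 fell, against 21.6% and 20.6% of all genes tested. Il1b stood at 0.873, 0.602 and 0.565 CPM in the WT naive libraries and at 15.2, 14.5 and 14.6 CPM in WT TCM. The groups were far apart, with a log2 fold change of 4.43 (SE 0.15, adjusted p = 5.4e-45), the largest of the members. Its overlapping antisense gene Il1bos had 0 counts in WT naive and 1 in WT TCM. Il18, the other inflammasome-processed ligand, was at 7.54, 7.69 and 7.49 CPM without TCM and at 13.5, 12.7 and 12.2 CPM with it (log2 fold change 0.76, SE 0.10, adjusted p = 4.6e-10). Their inhibitors moved the other way. Il1rn fell from 169, 171 and 182 CPM to 112, 109 and 108 CPM (-0.66, SE 0.03, adjusted p = 1.8e-34). Il18bp fell from 103, 102 and 107 CPM to 57.4, 55.7 and 51.2 CPM (-0.92, SE 0.04, adjusted p = 2.9e-34). Numa1, whose exons overlap Il18bp on the other strand, was at 192 CPM in WT naive and 191 CPM in WT TCM. Il1a, which encodes IL-1 alpha, showed no difference (0.619 against 0.634 CPM, log2 fold change 0.06, 95% interval -0.90 to 1.02).

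Of 5 IL-1 family receptors tested, 1 rose and 1 fell, near the 21.6% and 20.6% of all genes tested. Il1rl1, the receptor of IL-33, rose from 1.19 ± 0.128 to 2.20 ± 0.427 CPM, for a log2 fold change of 0.89 (SE 0.25, adjusted p = 0.0019). Its ligand gene Il33 had 0 counts in both of these groups. Il1r1, the signalling receptor of IL-1, fell from 0.915 ± 0.178 to 0.273 ± 0.0815 CPM (-1.70, SE 0.46, adjusted p = 0.0015). Its mean was under 1 CPM in both groups. Il1r1 passed the filter only through groups where it was higher, so its change is given as a value only. The shared accessory chain Il1rap was at 16.5 ± 0.520 and 16 ± 1.72 CPM (-0.04, 95% interval -0.23 to 0.15).

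Receptors of the common gamma chain and IL-4/IL-13 group changed in 5 of 6 tested, 4 of them upward. Of all genes tested, 42.2% were called. Il4ra (ENSMUSG00000030748, chromosome 7, 125552120 to 125579474), the alpha chain for IL-4 and IL-13, was at 174, 169 and 173 CPM in WT naive and at 481, 469 and 475 CPM in WT TCM (log2 fold change 1.47, SE 0.02, adjusted p = 1.1e-75). Il13ra1, its partner chain for IL-13, rose from 3.91, 2.41 and 2.97 CPM to 11.5, 13.8 and 13.7 CPM (2.07, SE 0.12, adjusted p = 3.4e-27). Il21r, the IL-21 receptor, rose from 71.7 ± 1.18 to 131 ± 2.85 CPM (0.87, adjusted p = 2.8e-42), and Il2rg from 115 ± 5.12 to 153 ± 2.54 CPM (0.42, adjusted p = 3.8e-21). Il7r, the alpha chain for IL-7, was the exception and fell from 142, 153 and 156 CPM to 68.5, 67.5 and 69.2 CPM (-1.14, SE 0.04, adjusted p = 3.1e-46). Its ligand gene Il7 fell from 0.792 ± 0.267 to 0.312 ± 0.0523 CPM (-1.30, adjusted p = 0.019), a call lost with DESeq2 (adjusted p = 0.071) and without WT naive replicate 3 (0.14) or WT TCM replicate 3 (0.071). Il4 itself, better known from T cells and basophils, was at 1.33, 1.89 and 2.69 CPM in WT naive and at 3.23, 3.14 and 3.80 CPM in WT TCM (0.78, SE 0.20, adjusted p = 0.00083).

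Il10, the main anti-inflammatory interleukin of macrophages, fell from 5.38, 5.33 and 5.46 CPM to 3.58, 3.80 and 4.43 CPM (log2 fold change -0.46, SE 0.15, adjusted p = 0.011), a call that did not hold when WT TCM replicate 1 was left out (adjusted p = 0.07). Its receptor chains diverged slightly, with Il10ra up from 144 ± 0.632 to 170 ± 3.38 CPM (0.23) and Il10rb down from 201 ± 5.93 to 172 ± 2.96 CPM (-0.22). Il6st, the signal-transducing chain gp130 of the IL-6 family, fell from 136 ± 0.996 to 118 ± 2.58 CPM (-0.21, adjusted p = 1.5e-08), and Il11ra1 fell from 41.4 ± 0.907 to 34.4 ± 1.49 CPM (-0.27). Il6ra, the ligand-binding chain for IL-6, was at 88.2 ± 3.69 and 90.5 ± 3.97 CPM (0.04, 95% interval -0.05 to 0.13). Il12rb1 was at 1.58 ± 0.320 and 2.38 ± 0.470 CPM (0.60, adjusted p = 0.04), a call lost with DESeq2 (0.092), with no filter on low counts (0.064) and without WT naive replicate 1 or 2 (0.069 and 0.19) or WT TCM replicate 2 (0.25). Il16, a chemoattractant cytokine, rose from 12 ± 0.0314 to 24.0 ± 0.943 CPM (1.0, adjusted p = 4e-21). Il15, a ligand of gamma-chain receptors, did not differ detectably (24.9 ± 1.98 and 25.1 ± 0.215 CPM, 0.01, 95% interval -0.15 to 0.17).

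Markers of other cells also differed between these groups. The 9 neutrophil and precursor markers summed to 50.1 to 54.1 CPM in WT naive and 4.08 to 5.57 CPM in WT TCM, where 2 of the 9 were at 0, and the 6 fibroblast markers to 13.3 to 14.4 and 0.165 to 0.403 CPM, with 3 of 6 at 0 in WT TCM. Mast cell and basophil markers summed to 1.70 to 2.06 CPM in WT naive and 0.303 to 0.441 CPM in WT TCM. Only 1 of the 6 was tested, and it was called lower. T cell and natural killer cell markers each summed to at most 1.10 CPM in any library of both groups. The part of these cells in the results was not tested.

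**Figure D3:**
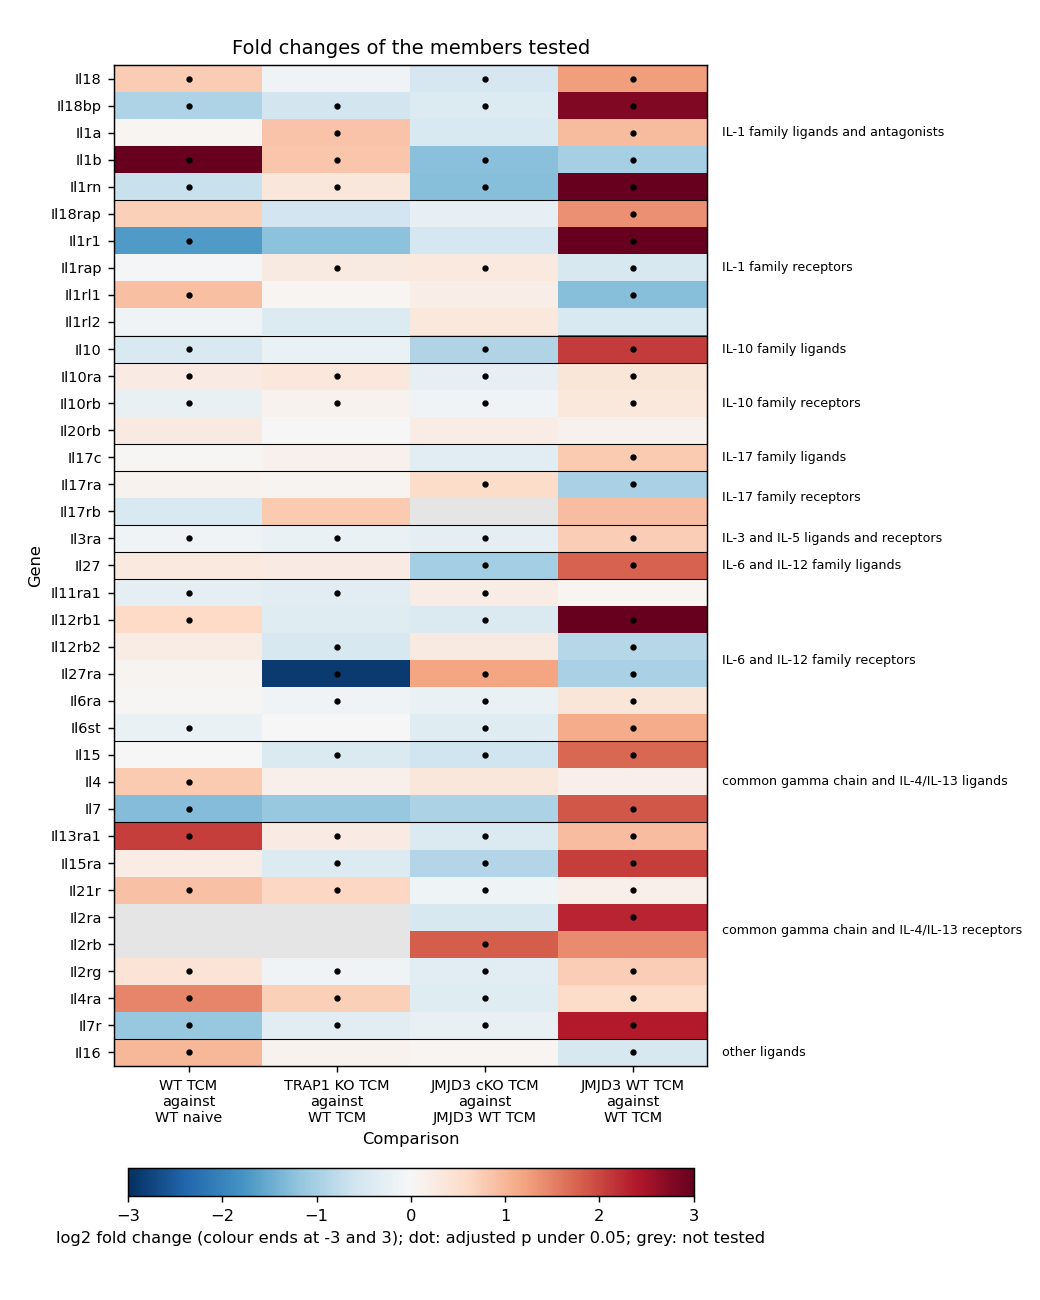
Log2 fold change (color) of the 37 tested members (rows, by family) in 4 comparisons (columns), with a dot for an adjusted p under 0.05 and grey where a gene was not tested. The color scale ends at -3 and 3. The column of JMJD3 cKO TCM holds mostly lower values (19 called lower, 5 higher), and the column of TCM holds 11 higher and 10 lower.

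The effect of losing the chaperone, in cells given the same medium, was read from TRAP1 KO TCM against WT TCM. Il1b, its antagonist Il1rn and the receptor chains Il4ra, Il13ra1, Il21r and Il10ra were higher without TRAP1, and Il15, Il18bp and Il7r were lower. Of 35 members tested 9 rose and 10 fell, against 21.2% and 21% of all genes tested. In 17 of the 19 called the libraries did not overlap, as for 88.6% of all genes called. The median log2 fold change was 0.02 over the members and 0.01 over all genes. WT TCM is the control here and the treated group of the comparison above, so values are given side by side and no agreement between the comparisons is drawn from them.

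Il1b rose further, to 25.1, 26.4, 26.1 and 27.4 CPM in the TRAP1 KO TCM libraries from 14.8 ± 0.388 CPM in WT TCM (log2 fold change 0.83, SE 0.08, adjusted p = 7.1e-17), after 4.43 with TCM. Il1bos held 7 counts in TRAP1 KO TCM. Il1rn was at 134, 136, 138 and 144 CPM against 110 ± 1.69 (0.34, SE 0.03, adjusted p = 2.1e-17), after -0.66 with TCM, so its level remained under that of WT naive libraries. Il18bp fell to 39.2, 35.3, 34.8 and 39.9 CPM from 54.8 ± 3.21 (-0.55, SE 0.05, adjusted p = 8.8e-19), after -0.92 with TCM. Il18 did not change detectably (11.9 ± 0.768 against 12.8 ± 0.682 CPM, -0.10, 95% interval -0.31 to 0.12). Il1a was at 1.82, 0.760, 1.24 and 0.916 CPM against 0.908, 0.551 and 0.443 CPM in WT TCM, groups that overlap. Its call (0.86, adjusted p = 0.039) was lost with DESeq2 (0.084), with no filter on low counts (0.064), without WT TCM replicate 2 (0.13) or 3 (0.17), and without TRAP1 KO TCM replicate 1 (0.22) or 3 (0.067). Il1rap rose from 16 ± 1.72 to 19.2 ± 0.928 CPM (0.27, adjusted p = 0.0027), but not without WT TCM replicate 3 (0.066).

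All 6 tested receptors of the common gamma chain and IL-4/IL-13 group were called, 3 in each direction, against 42.2% of all genes tested. Il4ra was at 782, 788, 772 and 764 CPM in TRAP1 KO TCM against 475 ± 6.19 CPM in WT TCM (log2 fold change 0.72, SE 0.02, adjusted p = 3e-55), after 1.47 with TCM. Il21r (ENSMUSG00000030745, chromosome 7, 125603429 to 125633570) was at 204, 203, 206 and 196 CPM against 131 ± 2.85 CPM (0.63, SE 0.03, adjusted p = 1.8e-36), after 0.87. Il4ra and Il21r lie close together on chromosome 7 and were the most changed gamma-chain receptors in this comparison. Il13ra1 was at 15.3 ± 0.586 against 13 ± 1.31 CPM (0.25, adjusted p = 0.02), a call lost with DESeq2 (0.062) and without WT TCM replicate 1 (0.23). The receptors that fell were Il7r, from 68.4 ± 0.882 to 53.5 ± 2.34 CPM (-0.34, adjusted p = 1.1e-12), Il2rg, from 153 ± 2.54 to 142 ± 5.05 CPM (-0.11, adjusted p = 0.0015), and Il15ra, from 6.72 ± 0.795 to 5.01 ± 0.467 CPM (-0.40, adjusted p = 0.0066). The Il15ra call was lost without WT TCM replicate 3 (0.059). Il15, the ligand that Il15ra presents to neighbouring cells, was at 18.5, 18.3, 18.5 and 18.6 CPM against 24.9, 25.3 and 25 CPM (-0.43, SE 0.07, adjusted p = 4.3e-08), so ligand and presenting chain both fell.

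Il27ra (ENSMUSG00000005465, chromosome 8, 84030294 to 84042589, minus strand), the IL-27 receptor alpha chain, passed the filter only through groups where it was higher and is given as a value only. It was at 1.61, 1.82 and 1.46 CPM in WT TCM and at 0.321, 0.095, 0.248 and 0.216 CPM in TRAP1 KO TCM (log2 fold change -2.87, SE 0.38, adjusted p = 3.8e-10), while WT naive libraries lay at 1.22 to 1.84 CPM. Palm3, which overlaps its exons on the other strand, was at 0.0395 CPM in WT TCM and 0.0523 CPM in TRAP1 KO TCM. The ligand gene Il27 was at 3.23 ± 0.334 and 3.79 ± 0.798 CPM (0.24, 95% interval -0.17 to 0.64). Il10ra rose from 170 ± 3.38 to 209 ± 3.30 CPM (0.31, adjusted p = 2.1e-19) and Il10rb from 172 ± 2.96 to 183 ± 2.27 CPM (0.10, adjusted p = 0.00085), with Il10 at 3.94 ± 0.443 and 3.40 ± 0.584 CPM (-0.19, 95% interval -0.57 to 0.18). Il11ra1 fell from 34.4 ± 1.49 to 27.3 ± 2.21 CPM (-0.33, adjusted p = 1.1e-06). Il6ra fell from 90.5 ± 3.97 to 83.4 ± 4.22 CPM (-0.11, adjusted p = 0.0085), but not without WT TCM replicate 2 (0.095) or TRAP1 KO TCM replicate 4 (0.054), and Il6st was at 118 ± 2.58 and 119 ± 3.20 CPM. Fibroblast markers summed to 4.71 to 6.95 CPM in TRAP1 KO TCM against 0.165 to 0.403 CPM in WT TCM, with none of the 6 at 0, and their part in these results was not tested. Neutrophil and precursor markers summed to 3.50 to 4.97 CPM against 4.08 to 5.57 CPM, with 1 of 6 tested called higher and 1 lower.

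The effect of the conditional knockout was read within its own line, from JMJD3 cKO TCM against JMJD3 WT TCM. Il1rn, Il1b, Il27, Il10 and Il15ra were among the members lower in the cKO. Of those tested, 5 of 10 ligands, 12 of 24 receptor chains and 2 of 2 inhibitors were called lower, while 5 receptor chains and none of the ligands were called higher. None of the 5 IL-1 family receptors tested was called lower and 1 was called higher. Of 36 members tested 19 fell and 5 rose, against 17.8% and 17.3% of all 13476 genes tested. The libraries did not overlap in any of the 24 called, as for 95.4% of all genes called. The median log2 fold change was -0.30 over the members and 0.01 over all genes. No library is shared with the comparisons above.

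Il1rn was at 891, 985 and 944 CPM in JMJD3 WT TCM and at 387, 388 and 376 CPM in JMJD3 cKO TCM (log2 fold change -1.29, SE 0.03, adjusted p = 3.6e-32). Il1b was at 7.98, 6.65 and 7.40 CPM and at 3.59, 3.02 and 2.61 CPM (-1.26, SE 0.16, adjusted p = 1.1e-08). The ligand and its antagonist thus fell by similar amounts on the log2 scale. Il18 fell from 31.7, 28.5 and 31.2 CPM to 22.8, 20.4 and 20.8 CPM (-0.51, adjusted p = 1.4e-07), and Il18bp from 366, 368 and 386 CPM to 289, 285 and 272 CPM (-0.40, adjusted p = 5.6e-15). Il1r1 was at 3.05 ± 0.482 and 2.12 ± 0.358 CPM (-0.53, adjusted p = 0.054), and passed the threshold without JMJD3 WT TCM replicate 2 (0.037) or JMJD3 cKO TCM replicate 2 (0.043). Il1rap was one of the 5 that rose, from 11.5 ± 1.16 to 14.1 ± 1.09 CPM (0.29, adjusted p = 0.021), a call lost with DESeq2 (0.071), without JMJD3 WT TCM replicate 2 (0.14) and without JMJD3 cKO TCM replicate 1 (0.07) or 2 (0.085).

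Il10 was at 16.8, 15.9 and 17.9 CPM in JMJD3 WT TCM and at 9.08, 9.07 and 8.78 CPM in JMJD3 cKO TCM (log2 fold change -0.91, SE 0.10, adjusted p = 3.3e-10). Il27, a ligand of the IL-12 family, fell from 11.5, 11.8 and 9.89 CPM to 5.86, 6.31 and 4.30 CPM (-1.02, SE 0.13, adjusted p = 2.1e-08). Its receptor chain Il27ra rose from 0.495, 1.11 and 0.893 CPM to 1.58, 1.93 and 2.10 CPM (1.19, SE 0.32, adjusted p = 0.0025). As one of the members set aside above for low counts, Il27ra is given as a value only. The shared chain gp130, encoded by Il6st, fell from 257 ± 4.38 to 201 ± 1.64 CPM (-0.35, adjusted p = 6.4e-13), Il6ra from 117 ± 1.94 to 102 ± 3.41 CPM (-0.20) and Il12rb1 from 26.6 ± 2.59 to 19.8 ± 1.42 CPM (-0.42, adjusted p = 2.8e-05). Il11ra1 rose from 35.7 ± 3.83 to 41.7 ± 1.57 CPM (0.23, adjusted p = 0.0032), but not without JMJD3 WT TCM replicate 3 (0.075).

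Il15 fell from 84.6, 79.5 and 85.5 CPM to 56.7, 53.3 and 54.7 CPM (log2 fold change -0.60, SE 0.05, adjusted p = 1.2e-14), and Il15ra from 28, 25.6 and 30.9 CPM to 15.7, 14.6 and 15.4 CPM (-0.88, SE 0.08, adjusted p = 2.6e-12). The IL-2/IL-15 beta chain Il2rb rose from 0.371, 0.416 and 0.447 CPM to 1.85, 0.834 and 1.69 CPM (1.82, SE 0.40, adjusted p = 0.00029). It passed the filter on low counts only through the cKO, where it is high. Il4ra fell from 694 ± 6.51 to 542 ± 8.49 CPM (-0.35, adjusted p = 2.2e-15), Il2rg from 254 ± 0.342 to 200 ± 7.00 CPM (-0.34), Il13ra1 from 24.4 ± 1.96 to 17.9 ± 2.03 CPM (-0.45), Il7r from 357 ± 3.65 to 306 ± 5.47 CPM (-0.22) and Il21r from 147 ± 1.49 to 135 ± 4.54 CPM (-0.12). Il17ra, the receptor of IL-17A, rose from 21.2, 18.1 and 19.8 CPM to 29.8, 28.9 and 27.9 CPM (0.55, SE 0.07, adjusted p = 4.6e-08). The IL-17A gene itself had no count. Il16 did not change detectably (17.2 ± 1.76 and 17.9 ± 1.74 CPM, 0.06, 95% interval -0.19 to 0.32).

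Marker sums moved within this line as well. Neutrophil and precursor markers summed to 21.2 to 25.3 CPM in JMJD3 WT TCM (1 of 9 at 0) and 39.2 to 40.9 CPM in JMJD3 cKO TCM (none at 0). Dendritic cell markers summed to 8.04 to 10.5 CPM and 3.96 to 5.44 CPM, with none of 5 at 0, mostly from Xcr1 (7.86 and 3.20 CPM). Macrophage markers were at 15672 to 16080 and 12421 to 12792 CPM, with 3 of the 7 called higher and 4 lower. T cell markers, which bear on Il2rb and Il27ra, were at 0.416 to 0.893 and 0.730 to 1.65 CPM, and natural killer cell markers at 0.186 to 0.346 and 0.156 to 0.739 CPM. The part of these cells in the results was not tested.

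The genotype effects share no library, so their difference was tested in 1 fit of all 16. It was called for 20 of 37 members, 14 with the TRAP1 effect above the JMJD3 effect and 6 with it below, against 37.9% of all 14545 genes tested. Higher without TRAP1 and lower in JMJD3 cKO were 7 members (Il10ra, Il10rb, Il13ra1, Il1b, Il1rn, Il21r and Il4ra) of the 34 tested in both comparisons, against 4.63% of the 13216 genes tested in both, and 2 had the reverse (Il11ra1 and Il27ra), against 5.28%. Another 7 were lower in both (Il15, Il15ra, Il18bp, Il2rg, Il3ra, Il6ra and Il7r), against 5.56% of all genes, and of the members only Il1rap was called higher in both, against 4.82%. The difference was 2.09 for Il1b (SE 0.16, adjusted p = 1.1e-20), 1.62 for Il1rn (SE 0.04, adjusted p = 1.9e-36) and 1.07 for Il4ra (SE 0.03, adjusted p = 1.4e-52). For Il27ra, set aside above for low counts, it was -4.06 (SE 0.49, adjusted p = 1.7e-11), given as a value only. For Il15, lower in both, it was 0.16 (95% interval -0.01 to 0.33, adjusted p = 0.098). Because each effect was measured in its own line, a difference between the effects and one between the lines cannot be told apart.

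**Figure D4:**
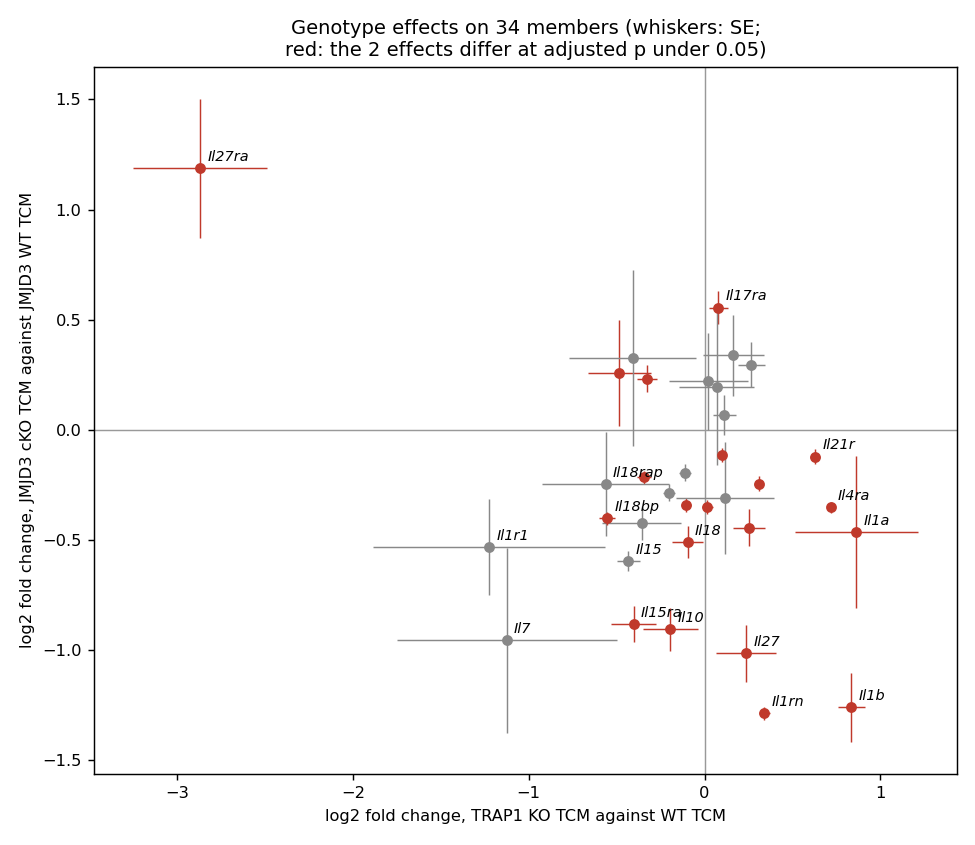
Log2 fold change in TRAP1 KO TCM against WT TCM (x axis) and in JMJD3 cKO TCM against JMJD3 WT TCM (y axis) of the 34 members tested in both, 1 point per gene with its SE, in red where the effects differ at an adjusted p under 0.05. Il1b, Il1rn and Il4ra lie at lower right (higher without TRAP1, lower in JMJD3 cKO) and Il27ra at upper left.

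The wild-type cells of both lines, each given TCM, differed more than either genotype comparison. In JMJD3 WT TCM 24 of 37 members were higher than in WT TCM and 7 lower, against 30% and 31.3% of all genes tested (61.3% either way). The median log2 fold change was 0.78 over the members and -0.00 over all genes. The inhibitors were far higher, Il1rn at 940 ± 47.2 against 110 ± 1.69 CPM (log2 fold change 3.10, adjusted p = 9.3e-57) and Il18bp at 373 ± 11 against 54.8 ± 3.21 CPM (2.77, adjusted p = 1.6e-62). Il12rb1 (3.48), Il7r (2.38), Il10 (2.11), Il15ra (2.08), Il27 (1.77) and Il15 (1.73) were higher as well. Il1r1 (3.43), set aside above for low counts, is given as a value only. Il1b was lower, at 7.34 ± 0.667 against 14.8 ± 0.388 CPM (-1.01, adjusted p = 4.4e-14), as were Il17ra (-0.97) and Il1rl1 (-1.28). Dendritic cell markers summed to 8.04 to 10.5 CPM in JMJD3 WT TCM and 0.887 to 1.43 CPM in WT TCM, and neutrophil and precursor markers to 21.2 to 25.3 and 4.08 to 5.57 CPM. B cell markers summed to 7.07 to 7.67 and 2.53 to 4.94 CPM, mast cell and basophil markers to 0.866 to 1.25 and 0.303 to 0.441 CPM, and macrophage markers to 15672 to 16080 and 25511 to 25978 CPM. By gene, 2 of 3 dendritic cell markers tested were called higher and 1 lower, and 3 of 7 macrophage markers higher and 4 lower. The part of these cells was not tested. Line, set and sex cannot be told apart in these differences, and WT TCM is again the shared control.

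The balance of ligand and inhibitor was followed as a ratio of counts in each library, a measure chosen after the values were seen and given as a description. Il1rn counts were 194, 285 and 322 times those of Il1b in WT naive libraries and 7.33, 7.54 and 7.40 times in WT TCM. The ratio was 5.15 to 5.35 without TRAP1. In the JMJD3 line it was 112 to 148 for the wild type and 108 to 144 for the cKO. It was thus lower in every TRAP1 KO TCM library than in any WT TCM library, while the groups of the JMJD3 line overlapped. Il18bp counts were 13.3 to 14.2 times those of Il18 in WT naive libraries, 4.21 to 4.40 times with TCM and 2.87 to 3.39 times with TCM and no TRAP1. The JMJD3 line gave 11.5 to 12.9 times for the wild type and 12.7 to 13.9 times for the cKO. The order of the groups in the first set was the same for both ratios.

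**Figure D5:**
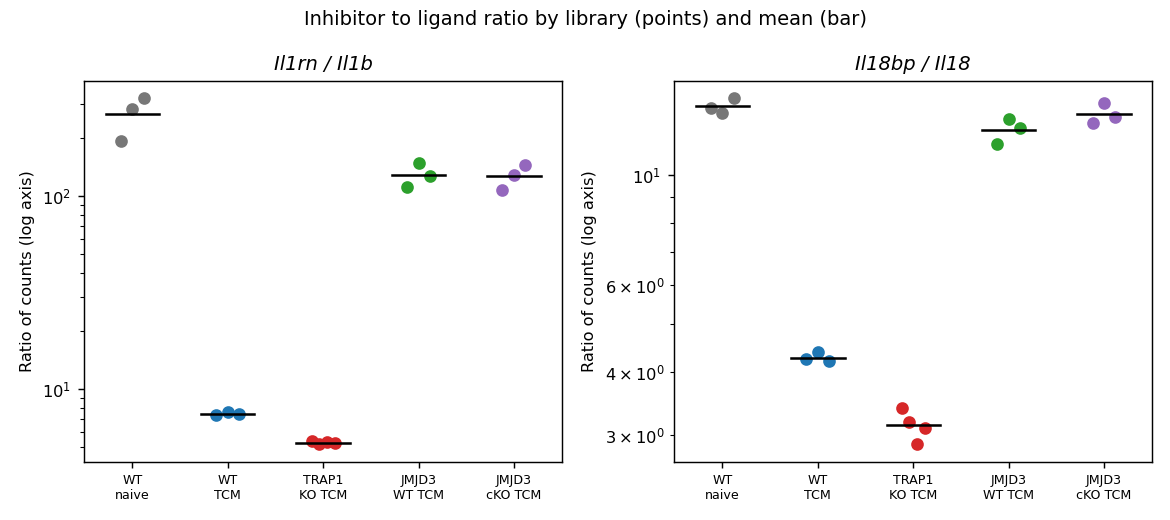
Ratio of Il1rn to Il1b counts (left) and of Il18bp to Il18 counts (right) in each library (y axes, log scale) by group (x axis), 1 point per library with a bar at the group mean. Both ratios are lowest in TRAP1 KO TCM, and those of the JMJD3 line lie near WT naive for Il18bp to Il18.

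A list of 30 genes that relay interleukin signals (adaptors, kinases, STAT factors, SOCS feedback inhibitors, inflammasome parts and shared receptor chains) was tested in full. With TCM 16 rose and 8 fell, beside 21.6% and 20.6% of all genes. Socs3, the feedback inhibitor induced by gp130 and IL-10 signals, rose from 2.15 ± 0.483 to 11.3 ± 0.830 CPM, for a log2 fold change of 2.40 (SE 0.13, adjusted p = 1.6e-29). Nlrp3, the inflammasome sensor upstream of IL-1 beta cleavage, rose from 51.8 ± 0.872 to 128 ± 3.06 CPM (1.30, adjusted p = 3.2e-52), and Stat3, the factor activated downstream of gp130 and IL-10, from 134 ± 2.57 to 191 ± 3.26 CPM (0.51, adjusted p = 7.5e-31). Without TRAP1 13 rose and 6 fell, beside 21.2% and 21% of all genes. Crlf2, the receptor chain for TSLP that pairs with Il7r, fell from 165 ± 6.98 to 97.7 ± 3.0 CPM (-0.75, adjusted p = 4.1e-39), alongside Il7r. Csf2rb (0.37) and Csf2rb2 (0.30), near-identical beta chains of receptors for IL-3, rose, with reads that the counting may have split between them.

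In JMJD3 cKO TCM 4 of the 30 rose and 18 fell, beside 17.3% and 17.8% of all genes. Jak2, a kinase bound to many of these receptors, fell from 102 ± 4.49 to 65.3 ± 1.86 CPM, for a log2 fold change of -0.64 (SE 0.04, adjusted p = 2.5e-16). Socs3 fell from 34.0, 33.8 and 33.2 CPM to 19.4, 16.2 and 16.5 CPM (-0.95, adjusted p = 2.5e-14), and Bcl3, a nuclear regulator of NF-kappaB, from 66.2 ± 1.10 to 42.6 ± 2.04 CPM (-0.63, adjusted p = 4.8e-14). The median log2 fold change of the list was -0.13, against 0.01 over all genes. In JMJD3 WT TCM against WT TCM 21 of the 30 were higher and 5 lower, beside 30% and 31.3% of all genes.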

How the data were processed

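Ribosomal RNA was depleted (Ribo-Zero) and stranded TruSeq libraries were sequenced on a HiSeq, per the labels' protocols. HISAT, StringTie, Bowtie2, RSEM and the build mm10 appear in the submitters' processing notes without role or version. Which of them made the counts, and whether strand was used, is not given in the sources consulted. Each library has 1 deposited table of gene counts, whole numbers that were used as raw counts. GENCODE M21 (GRCm38) gave symbols, positions and exon lengths. Besides the overlaps named above, exons of Il27, Il16, Il12rb2 and Il11ra1 overlap Apobr, Stard5, Serbp1 and Ccl27a on the other strand. Exons of Il10rb and Il2rg overlap Gm21970 and Gm20489 on the same strand. How reads in such shared stretches were counted is not known here, which limits the levels of these genes.

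The test was the robust quasi-likelihood test of edgeR (4.0.16, R 4.3.3) on TMM-scaled counts, after filterByExpr at a minimum of 10 counts, with Benjamini-Hochberg adjustment over all genes and a threshold of 0.05. The 10 libraries of the TRAP1 set were fitted together for the first comparisons, the 6 of the JMJD3 line alone for theirs, and all 16 for comparisons across the lines. Printed CPM used 1 TMM scaling of all 16 libraries. The procedure was also run on counts simulated as independent libraries, which cannot show whether the spread among the real libraries is technical. The alternatives were DESeq2 (1.42.0), its size factors, other filters, other samples in the fit, a replicate block, and leaving out each library.

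The members, the lists and the rule for named genes were chosen with earlier results of these data known. Named genes had at least 1 CPM in some group and a call with an absolute log2 fold change of at least 0.5 in a comparison within a set. This took 22 genes. A further 24 were set by name whatever their values, of which 12 also met the rule, for 34 in all. Of the signalling list, the 3 with the smallest adjusted p per comparison were named. No replicates held identical counts. Totals of 15361604 to 22426820 counts limit precision for genes under about 1 CPM.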

Additional observations from a re-analysis of the deposited data

Results flagged for a closer look

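The TRAP1 effect differed from the JMJD3 effect beyond the adjusted threshold (edgeR quasi-likelihood test of the difference, Benjamini-Hochberg adjustment) for 19 named genes. The share over all 14545 genes tested was 37.9%. Of the 34 named genes, 22 were selected by their values in these data, so the count of 19 is no result about the members. The genes are listed with the difference in log2 fold change. TRAP1 effects lay above JMJD3 effects for Il1b (2.09), Il1rn (1.62), Il1a (1.33), Il27 (1.25), Il4ra (1.07), Il21r (0.75), Il10 (0.71), Il13ra1 (0.69), Il10ra (0.55), Il15ra (0.48), Il18 (0.41), Il6st (0.36), Il2rg (0.23) and Il10rb (0.21). They lay below for Il27ra (-4.06), Il11ra1 (-0.56), Il17ra (-0.48), Il18bp (-0.15) and Il7r (-0.13). Each effect comes from its own line, and the lines differ in set and sex.

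In TRAP1 KO TCM, the only group of 4 libraries, replicate 3 stood apart for Il15ra, at 5.71 CPM against 4.69 to 4.84 CPM in the others. The same library stood apart for Il11ra1, at 24.0 CPM against 28 to 28.6 CPM. Chance alone flags about 1 in 20 groups tested this way.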

How the results depend on the processing

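Of 86 calls of named genes in the 4 comparisons between groups, 74 were kept under every alternative that tested the gene and 12 were lost under at least 1. A call was not counted as lost where a stricter filter left its gene untested. The number of members called higher and lower ranged over all alternatives from 9 to 11 and 8 to 11 with TCM, 7 to 10 and 8 to 10 without TRAP1, 3 to 6 and 19 to 20 in JMJD3 cKO TCM, 18 to 26 and 5 to 7 between the wild types, and 17 to 20 for the difference of the genotype effects. A minimum of 50 counts left 3 members higher in JMJD3 cKO TCM, since fewer were tested. Log2 fold changes that changed sign were of genes not called. With TCM, Il15 was at -5.7e-05 with no filter. The rest changed sign when 1 library was left out. Their lowest and highest values were -0.039 and 0.070 (Il15), -0.067 and 0.21 (Il27ra), -0.30 and 0.25 (Il1a) and -0.11 and 0.036 (Il1rap) with TCM, -0.073 and 0.16 (Il1rl1) without TRAP1, -0.012 and 0.14 (Il16) and -0.13 and 0.39 (Il1rl1) in JMJD3 cKO TCM, and -0.14 and 0.31 (Il4) and -0.030 and 0.12 (Il11ra1) between the wild types. The same replicate numbers did not pair the libraries (12 same-numbered pairs, r from -0.085 to 0.085 over 9752 genes, none above 0.1). Over the pairs of groups, the best correlation was with the same number in 3 of 12 cases. WT TCM libraries entered more than 1 pair of groups. A replicate block left 11 and 10 members called higher and lower with TCM, 9 and 9 without TRAP1, where the Il6ra call was lost (adjusted p = 0.061), 5 and 19 in JMJD3 cKO TCM, 25 and 7 between the wild types, and 20 for the difference. Without the filter, 4 calls were added for genes too low to test otherwise, namely Il23a and Il2rb with TCM and Il6 and Il23r between the wild types. Depth limits such genes.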
